A study of Mus musculus with 8 samples.

Results

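The genes described here carry long-chain fatty acids from the blood into the cardiac muscle cell, store them in lipid droplets and break them down in mitochondria. They are 41 named genes, found by their symbol among the 43346 genes of the count table, and all 41 passed the filter on low counts that left 16111 genes for testing. They fall into 10 steps: uptake, lipolysis at the vessel wall, the lipid droplet, activation, the carnitine shuttle, malonyl-CoA, the beta-oxidation spiral, auxiliary beta-oxidation, electron transfer, and thioesterases with uncoupling. The study sequenced 8 libraries of ventricular mRNA from male C57BL/6 mice, 4 from tumor-bearing and 4 from PBS-injected mice. The tumor-bearing mice had received 1000000 LLC1 cells under the skin at 7 weeks of age, and the PBS-injected mice had received phosphate-buffered saline alone. LLC1 is a Lewis lung carcinoma line that arose in C57BL/6 mice, so the tumor is a transplanted line grown in a matched host. All tissue was taken 14 days after the injection. The labels give each library a replicate code and do not say whether it came from a single animal, so p-values measure the spread between these libraries, and a mouse, in the values that follow, stands for a library.

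Fatty acids are the main fuel of the adult heart. They reach the cardiomyocyte either from lipoproteins, after lipoprotein lipase has freed them at the capillary wall, or bound to albumin, and they are then carried across the membrane and through the cytosol by transport and binding proteins. Joined to coenzyme A, they are either stored as triglyceride or passed into mitochondria through the carnitine shuttle, whose entry enzyme is inhibited by malonyl-CoA. Inside, repeated rounds of beta-oxidation release acetyl-CoA and hand electrons to the respiratory chain. Many of the genes of this route are known targets of the nuclear receptor PPARα and its partners.

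Counts are given as counts per 1000000 counts (CPM) after TMM scaling, edgeR's correction for differences in library composition. A gene was called when its false discovery rate (FDR), the Benjamini-Hochberg adjusted p-value of edgeR's quasi-likelihood test over all 16111 genes, was under 0.05. Values per mouse are listed in the order 1-2, 1-3, 1-5 and 2-2 for tumor-bearing mice and 1-1, 1-3, 2-1 and 2-5 for PBS-injected mice. Means are given with the SD over 4 mice, and log2 fold changes with their standard error (SE).

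Library totals ran from 15342214 to 19747596 counts in tumor-bearing mice and from 12480706 to 16192158 counts in PBS-injected mice. PBS 1-1 stood apart from the other libraries. Its 10 most abundant genes took 20.4% of its counts, compared with 13.9% to 15.3% elsewhere. The 8 cardiomyocyte markers were all tested, and their summed level was 98955 to 105541 CPM in tumor-bearing mice and 88595 to 91248 CPM in PBS-injected mice, without overlap. Of these markers, Myh6 (log2 fold change 0.24, FDR = 0.0209) and Mybpc3 (0.34, FDR = 0.00678) rose, and 6 were not called. Ryr2 (-0.17) and Actc1 (-0.054) were the 2 with negative log2 fold changes (3 with total-count scaling, 4 with scaling to the markers themselves). The 4 atrial markers summed to 113 to 339 CPM over the 8 mice. All 7 endothelial markers had negative log2 fold changes and 2 were called lower. For fibroblasts, 6 of 7 were negative (5 with gene length offsets) and 4 were called lower. All 7 macrophage markers were negative and 1 was called lower. All 6 smooth muscle and pericyte markers were negative (5 with gene length offsets). edgeR called 0 of them, DESeq2 1 and limma-voom 0, with 3 at an unadjusted p-value under 0.05. Their summed level was 784 to 842 CPM in tumor-bearing mice and 902 to 1064 CPM in PBS-injected mice, without overlap. The 5 erythroid markers were positive (4 with marker scaling), with 0 called by each tool and 0 at that p-value. None of the 8 adipocyte markers passed the filter, and together they reached at most 2.84 CPM in any mouse. In tissue of mixed cells, fewer cells of a type and less RNA per cell cannot be told apart.

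In the ventricles of tumor-bearing mice, 16 of the 41 fatty acid genes were higher than in PBS-injected mice, 1 was lower and 24 were not called. Among all genes tested, 8.73% were called, 4.12% higher and 4.61% lower. The largest differences among the 41 were the rises of Pnpla2 (1.65-fold), Slc27a1 (1.5-fold), Lipe (1.46-fold) and Acot1 (1.43-fold) and the fall of Fabp5 (to 0.66 of the control level). The other 12 rises were 1.16-fold to 1.33-fold. The log2 fold change was positive for 37 genes and negative for 4, with a median of 0.18, compared with a median of -0.010 over all genes tested, of which 47.9% were positive. In 19 genes every tumor-bearing mouse lay above every PBS-injected mouse, in 1 gene every tumor-bearing mouse lay below, and in 21 the groups overlapped. Over all genes tested, 8.89% had every tumor-bearing mouse above and 8.27% every tumor-bearing mouse below. For such a gene, the two-sided exact permutation p, counted over 70 ways to divide 8 mice, is 0.0286, the smallest that this design allows.

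**Figure D1:**
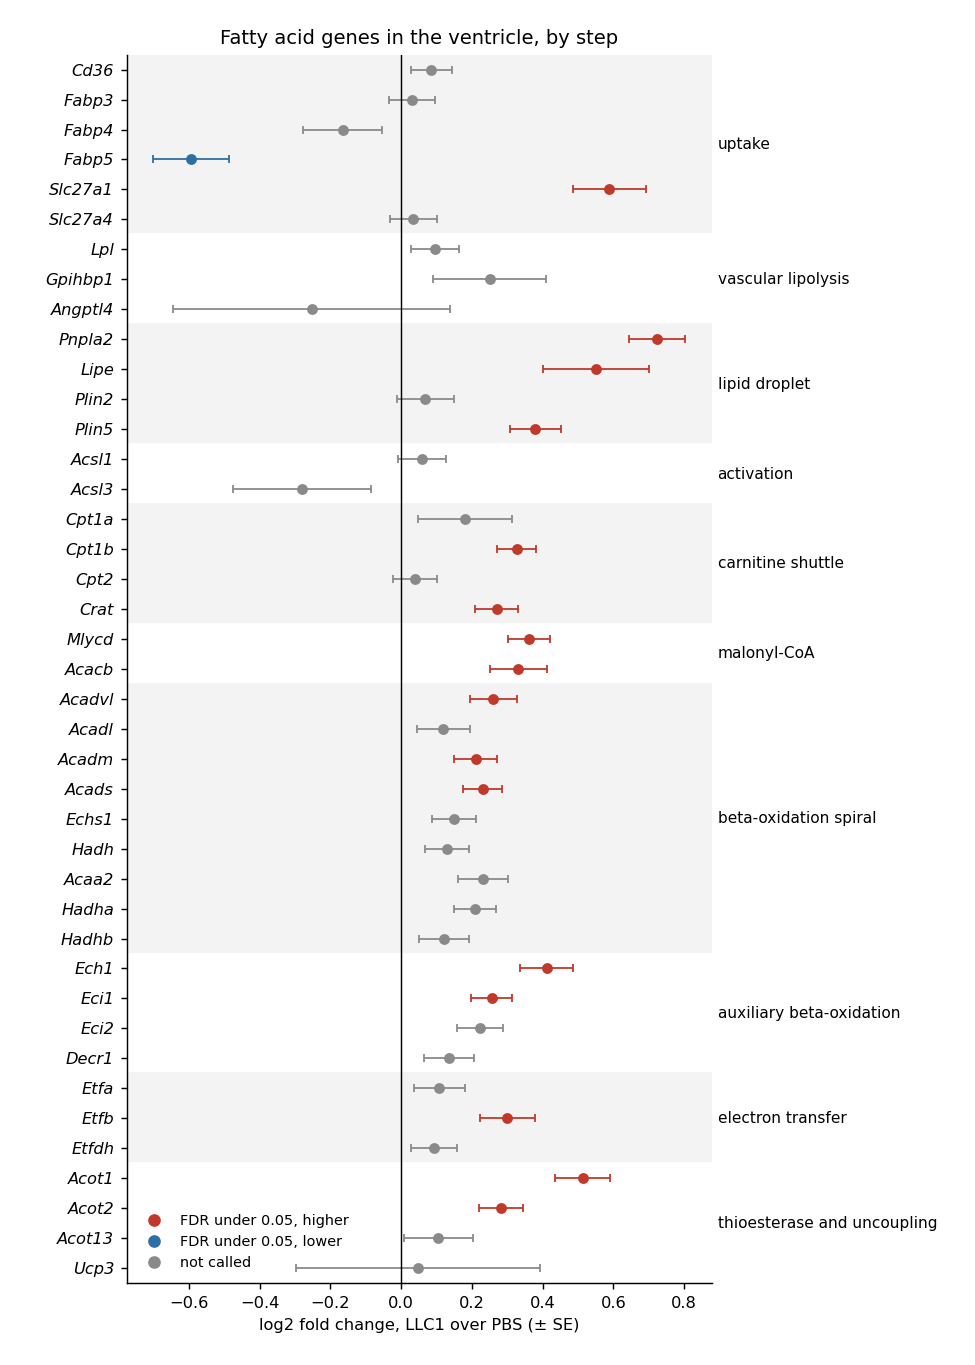
Log2 fold change of each of the 41 fatty acid genes in tumor-bearing (LLC1) over PBS-injected mice, with bars of 1 SE, grouped by step. Red points passed an FDR of 0.05 upward (16 genes), blue downward (Fabp5), and grey points did not pass. The points run from -0.59 for Fabp5 to 0.72 for Pnpla2.

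Of these 17 calls, 8 held under all 16 alternative fits planned for the analysis: Slc27a1, Pnpla2, Plin5, Cpt1b, Mlycd, Ech1, Acot1 and the lower Fabp5. The remaining 9 were lost in at least 1 of them. Leaving out LLC1 1-2, LLC1 1-3, LLC1 1-5, PBS 1-3 or PBS 2-1 left 10, 7, 8, 7 and 9 genes called higher. Scaling by total counts alone left 7, with 225 of all genes called higher and 793 lower, compared with 663 and 743 under TMM scaling. The summed cardiomyocyte markers rose by a log2 ratio of 0.18, next to a median of 0.18 for the 41 genes. Most of that sum and of its rise was Myh6, the alpha myosin heavy chain, at 54333 CPM in tumor-bearing mice and 45869 CPM in PBS-injected mice, of 101641 and 89678 CPM for the 8 markers together. When libraries were scaled to those markers instead, a choice made after seeing the data that moved the median of all genes by -0.18 and called 173 of all genes higher and 3912 lower, the members' median log2 fold change became 0.0020, 21 of 41 were positive, and 4 remained called higher: Pnpla2 (0.54, FDR = 0.00188), Acot1 (0.33, FDR = 0.00974), Slc27a1 (0.41, FDR = 0.0163) and Ech1 (0.23, FDR = 0.0318). Fabp5 (-0.78, FDR = 0.000754) and Fabp4 (-0.35, FDR = 0.0365) were then called lower. The 41 genes together made up 30.9% to 32.5% of the summed cardiomyocyte markers' CPM in tumor-bearing mice and 31.0% to 32.8% in PBS-injected mice, with overlap. The part of the marker rise in the members' rise was not tested.

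**Figure D2:**
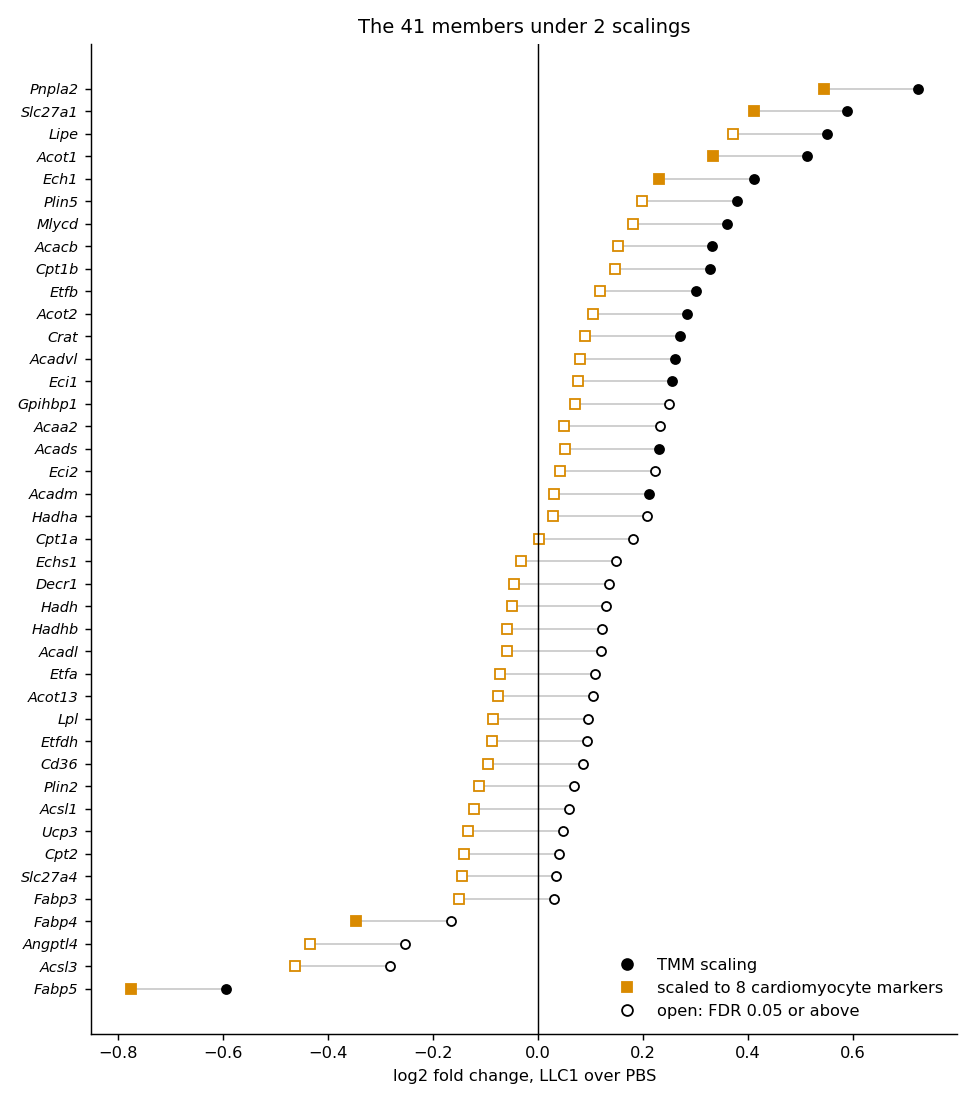
Log2 fold change of the 41 genes under TMM scaling (black circles) and under scaling to the summed CPM of 8 cardiomyocyte markers (orange squares), sorted by the former. Filled symbols passed an FDR of 0.05, which 17 genes did with TMM scaling and 6 with marker scaling, and the squares lie to the left of the circles in every gene.

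At the membrane, the transport proteins and binding proteins did not move together. Slc27a1 encodes FATP1, a transport protein that also activates the fatty acids it brings in. Its level was 309.7, 319.5, 305 and 341 CPM in tumor-bearing mice and 187, 198, 194 and 267 CPM in PBS-injected mice. All tumor-bearing mice were above all PBS-injected mice, of which PBS 2-5 was the nearest. Slc27a1 rose (319 ± 15.6 CPM versus 212 ± 37.3 CPM, log2 fold change 0.59 ± 0.10, FDR = 0.00694). Its relative Slc27a4, which encodes FATP4, differed little (log2 fold change 0.035, 95% interval -0.11 to 0.18). As a share of the summed CPM per kilobase of the pair, Slc27a1 made up 94.4% ± 0.33 in tumor-bearing mice and 91.8% ± 1.02 in PBS-injected mice (SD, n = 4).

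Fabp5, the epidermal-type fatty acid binding protein, which endothelial cells and macrophages are known to express, was the only one of the 41 to fall under TMM scaling. Tumor-bearing mice had 25.9, 25.8, 31.4 and 25.1 CPM and PBS-injected mice had 38.0, 43.6, 34.6 and 47.2 CPM. The groups did not overlap, and LLC1 1-5 was the closest of its group to the controls. Fabp5 fell (27.1 ± 2.92 CPM versus 40.8 ± 5.61 CPM, log2 fold change -0.59 ± 0.11, FDR = 0.00787). The summed endothelial markers were 844 to 969 CPM in tumor-bearing mice and 959 to 1250.5 CPM in PBS-injected mice, and the macrophage markers 162 to 202 CPM and 168 to 252 CPM, both with overlapping groups. Their part in the lower Fabp5 was not tested. The pseudogene Gm6166 is 99.4% identical to Fabp5 over 175 bases and holds 289 counts, compared with 4309 for Fabp5. Fabp4, the binding protein of adipocytes and capillary endothelium, was at 490.4, 458, 518 and 500.1 CPM and 470.4, 531, 499 and 705 CPM. PBS 2-5 was far above the other 7 mice, which lay close to each other, and Fabp4 was not called (log2 fold change -0.17 ± 0.11, FDR = 0.377).

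Cd36, the main membrane protein for fatty acid entry in the heart, read 2007, 2054, 2057 and 1931 CPM in tumor-bearing mice and 1941, 1913, 1923 and 1809 CPM in PBS-injected mice. Only LLC1 2-2 fell within the range of the controls, and the difference was small and not called (log2 fold change 0.086 ± 0.059, FDR = 0.393, 95% interval -0.043 to 0.21). Fabp3, the heart-type binding protein, was the most abundant of the 41 genes per length, at 2921 CPM per kilobase in PBS-injected mice and 2983 in tumor-bearing mice, and its log2 fold change was 0.030 (95% interval -0.11 to 0.17). Its direction turned negative when libraries were scaled by total counts, by gene length trend or by cardiomyocyte markers, and without LLC1 1-2. A processed pseudogene, Fabp3-ps1, is 99.3% identical to Fabp3 over 402 bases and holds 57088 counts over the 8 libraries, compared with 310864 for Fabp3, so reads of the gene may be divided between the pair.

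At the vessel wall, 0 of the 3 genes passed edgeR's test, 0 had an unadjusted p-value under 0.05, and DESeq2 and limma-voom called 0. Lpl encodes lipoprotein lipase, which frees fatty acids from circulating triglyceride. It was at 6739, 6506, 6695 and 6004 CPM in tumor-bearing mice and 5985, 6195, 6467 and 5640.4 CPM in PBS-injected mice, with overlapping groups (log2 fold change 0.10 ± 0.068, FDR = 0.409, 95% interval -0.052 to 0.24). Gpihbp1, which anchors the lipase on capillary endothelium, had a log2 fold change of 0.25 (FDR = 0.354) and ranged from 58.9 to 114.5 CPM over the PBS-injected mice alone. Without PBS 2-5, the highest, its log2 fold change was 0.48 with FDR = 0.0101. Angptl4, an inhibitor of the lipase that is induced by fasting, varied more than any other member. Its values were 9.79, 25.5, 25.3 and 34.4 CPM in tumor-bearing mice and 8.67, 38.4, 38.1 and 27.6 CPM in PBS-injected mice. A single mouse of each group, LLC1 1-2 and PBS 1-1, was below 10 CPM, the other 6 were above 25 CPM, and the groups overlapped (log2 fold change -0.25 ± 0.39, FDR = 0.728).

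Of the 4 lipid droplet genes, 3 rose. Pnpla2 encodes adipose triglyceride lipase, which takes the opening step in breaking down stored triglyceride. Tumor-bearing mice had 575, 586, 585 and 639 CPM and PBS-injected mice 317, 345, 377 and 404 CPM. The lowest tumor-bearing mouse was well above the highest control. The rise of Pnpla2 (596 ± 29.0 CPM versus 361 ± 38.0 CPM, log2 fold change 0.72 ± 0.079, FDR = 0.000635) was the largest among the 41 genes.

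Lipe, which encodes hormone-sensitive lipase, the enzyme that acts on the diglyceride left by Pnpla2, stood at 70.8, 84.7, 75.4 and 90.8 CPM in tumor-bearing mice and 38.4, 51.5, 57.2 and 71.9 CPM in PBS-injected mice. PBS 2-5 was slightly above LLC1 1-2, so the groups overlapped. Lipe rose (80.4 ± 8.99 CPM versus 54.7 ± 13.9 CPM, log2 fold change 0.55 ± 0.15, FDR = 0.0429), but the call was lost in 6 of 8 fits that left out a mouse and with total-count scaling. Reads on 15.6% of its exon bases can also come from the antisense gene 4732471J01Rik, since the library kit does not mark strand. The 8 adipocyte markers, adipocytes being rich in Pnpla2, Lipe and Fabp4, summed to 0.553 to 2.84 CPM in tumor-bearing mice and 0.531 to 2.14 CPM in PBS-injected mice. Ucp1 had no count in any mouse, and Lep was at 0 in 7 of 8 mice.

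Plin5, the perilipin of oxidative tissues that ties lipid droplets to mitochondria, was at 227, 223, 245 and 206 CPM and 164, 171, 167 and 191 CPM. Every tumor-bearing mouse exceeded every control, LLC1 2-2 by the least. Plin5 rose (225 ± 16.1 CPM versus 173 ± 12.1 CPM, log2 fold change 0.38 ± 0.072, FDR = 0.0101). Plin2, a coat protein whose level is known to follow the amount of stored lipid, was at 73.6, 80.3, 79.5 and 83.6 CPM in tumor-bearing mice and 64.1, 82.7, 78.1 and 77.2 CPM in PBS-injected mice. The groups overlapped and it was not called (log2 fold change 0.069 ± 0.080, FDR = 0.632). Summed over the 4 droplet genes, the level was 947 to 1019 CPM in tumor-bearing mice and 583 to 744 CPM in PBS-injected mice.

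**Figure D3:**
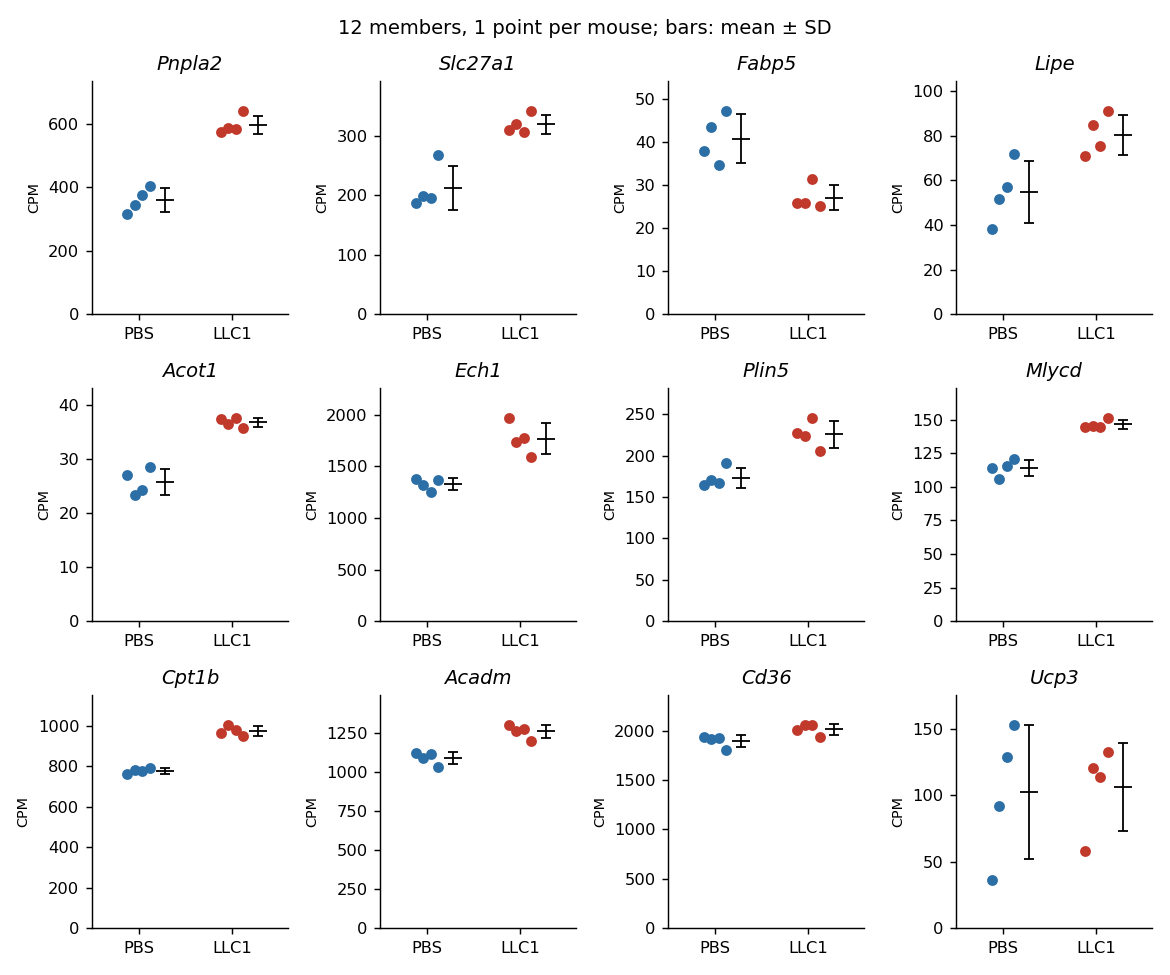
CPM of 12 of the genes in each mouse, with PBS-injected mice in blue, tumor-bearing (LLC1) mice in red, and the mean with 1 SD in black. Each vertical axis starts at 0. The groups separate in 9 of the 12 panels (Fabp5 downward) and overlap for Lipe, Cd36 and Ucp3, where Ucp3 ranges from 36.4 to 152.8 CPM within the PBS-injected mice.

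Of the 2 acyl-CoA synthetases, 0 were called by edgeR, DESeq2 or limma-voom, and 0 had an unadjusted p-value under 0.05. Acsl1, the main activating enzyme of the heart, had a log2 fold change of 0.059 (95% interval -0.089 to 0.21) and was present at 109.6 CPM per kilobase in PBS-injected mice. Acsl3, its counterpart at the endoplasmic reticulum and lipid droplets, was the scarcest member at 1.51 CPM per kilobase. Acsl3 was at 4.63, 6.32, 6.13 and 4.38 CPM in tumor-bearing mice and 8.24, 7.71, 4.59 and 5.78 CPM in PBS-injected mice, with wide overlap (log2 fold change -0.28 ± 0.20, FDR = 0.395).

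In the carnitine shuttle, the muscle form of the entry enzyme rose. Cpt1b, carnitine palmitoyltransferase 1B, catalyses the rate-limiting transfer of long-chain acyl groups to carnitine. It read 968, 1005, 981 and 949 CPM in tumor-bearing mice and 761, 784, 776 and 792 CPM in PBS-injected mice. The spread within each group was small next to the gap between them. Cpt1b rose (976 ± 23.4 CPM versus 778 ± 13.2 CPM, log2 fold change 0.33 ± 0.056, FDR = 0.00649) and remained called with any mouse left out. Its annotated exons lie for 81.4% within the readthrough gene Gm44502 of the same strand, which was not found among the rows of the count table.

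Cpt1a, the liver form, was at 73.6, 86.3, 74.8 and 94.8 CPM and 53.9, 67.4, 82.2 and 86.8 CPM. Its groups overlapped and it was not called (log2 fold change 0.18 ± 0.13, FDR = 0.433). Cpt1b made up 93.8% ± 0.77 of the summed CPM per kilobase of the 2 forms in tumor-bearing mice and 93.2% ± 1.24 in PBS-injected mice (SD, n = 4). Cpt2, which returns the acyl group to coenzyme A on the inner side of the membrane, had a log2 fold change of 0.040 (95% interval -0.094 to 0.17).

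Crat encodes carnitine acetyltransferase, which buffers short acyl groups as carnitine esters. Its values were 701, 713, 717 and 691 CPM in tumor-bearing mice and 547, 586, 622 and 585 CPM in PBS-injected mice. All tumor-bearing mice were above PBS 2-1, the highest control. Crat rose (705 ± 11.8 CPM versus 585 ± 30.7 CPM, log2 fold change 0.27 ± 0.060, FDR = 0.0193), and the call was lost in 3 of 8 fits that left out a mouse and with total-count scaling (FDR = 0.123).

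Both malonyl-CoA genes among the 41 rose, although their products act in opposite directions on this inhibitor of the shuttle. Acacb, acetyl-CoA carboxylase 2, makes malonyl-CoA at the mitochondrial surface, and Mlycd, malonyl-CoA decarboxylase, removes it. Acacb was at 629, 755, 680.4 and 757 CPM in tumor-bearing mice and 508, 548, 578 and 609.7 CPM in PBS-injected mice. LLC1 1-2 was close to PBS 2-5, and the other 3 tumor-bearing mice were further above. Acacb rose (706 ± 62.3 CPM versus 561 ± 43.4 CPM, log2 fold change 0.33 ± 0.081, FDR = 0.0273), a call that held in 3 of 8 fits with a mouse left out. Mlycd was at 145, 145, 145 and 151 CPM and 114, 106, 115 and 121 CPM. The tumor-bearing mice were almost level with each other and above all controls. Mlycd rose as well (146 ± 3.10 CPM versus 114 ± 6.05 CPM, log2 fold change 0.36 ± 0.059, FDR = 0.00511) and was called in every such fit.

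In the beta-oxidation spiral, the differences were small and of the same sign. All 9 genes had positive log2 fold changes, from 0.12 to 0.26, although those of Acadl, Echs1, Hadh and Hadhb turned negative with scaling to cardiomyocyte markers. In 6 of the 9 the groups did not overlap, and 3 were called higher. Together they summed to 9308 to 10245 CPM in tumor-bearing mice and 8180.5 to 9022 CPM in PBS-injected mice. The 3 called genes encode acyl-CoA dehydrogenases, which take the opening step of each round for chains of different length.

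Acadvl, the enzyme for very long chains, was at 1708, 1585, 1654 and 1476 CPM in tumor-bearing mice and 1414, 1349.5, 1295 and 1301 CPM in PBS-injected mice. LLC1 2-2 was the lowest of its group and still above PBS 1-1, the highest control. Acadvl rose (1606 ± 100.2 CPM versus 1339.9 ± 55.2 CPM, log2 fold change 0.26 ± 0.067, FDR = 0.0325). The call was kept in 2 of 8 fits with a mouse left out and lost with total-count scaling (FDR = 0.0728). Acadvl shares 42.9% of its exon bases with Dvl2 on the opposite strand, and reads from that stretch cannot be told apart without strand.

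Acadm, the medium-chain enzyme, was at 1300.0, 1262, 1273 and 1200.1 CPM and 1118, 1087, 1112 and 1033 CPM, with a narrow gap between LLC1 2-2 and PBS 1-1. Acadm rose (1259 ± 42.3 CPM versus 1088 ± 39.0 CPM, log2 fold change 0.21 ± 0.060, FDR = 0.0494). This was the weakest of the calls, since it was kept in 1 of 8 fits with a mouse left out and in 4 of 8 other planned fits. Acads, the short-chain enzyme, was at 251, 259.8, 243 and 255 CPM in tumor-bearing mice and 215, 210.1, 224 and 211 CPM in PBS-injected mice. The groups did not overlap, and Acads rose (252 ± 6.97 CPM versus 215 ± 6.40 CPM, log2 fold change 0.23 ± 0.056, FDR = 0.0262). The Acads call was kept in 3 of 8 such fits and lost with total-count scaling (FDR = 0.14). Acadl, the long-chain enzyme, was not called (0.12, FDR = 0.347), and PBS 1-1 had its highest value, at 1086 CPM. Without PBS 1-1 its log2 fold change was 0.19 with FDR = 0.0436.

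The later enzymes of the spiral were not called by edgeR, although 3 of them had groups that did not overlap. DESeq2 called Hadha and Acaa2, and limma-voom called Hadha. Acaa2, the thiolase that ends a round, had 1291, 1098, 1132 and 1071 CPM in tumor-bearing mice and 942, 961, 1006 and 1001 CPM in PBS-injected mice. LLC1 1-2 was the highest, and all tumor-bearing mice were above all controls (log2 fold change 0.23 ± 0.071, FDR = 0.0639). Hadha, the alpha subunit of the trifunctional protein, missed the threshold narrowly (log2 fold change 0.21, FDR = 0.0515), and Hadh, which acts on shorter chains, did so by more (0.13, FDR = 0.209). The hydratase Echs1 (0.15, FDR = 0.159) and Hadhb, the beta subunit of the trifunctional protein (0.12, FDR = 0.302), had overlapping groups.

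Hadha and Hadhb lie back to back on chromosome 5, with start sites 86 bases apart in GENCODE M21. The 85 bases between the genes are shown because they are all that separates the pair in that annotation. The RefSeq promoter window of Hadha is placed around a start site further inside the gene, so the stretch is next to both start sites only by GENCODE. They span chr5:30155163-30155247 on the plus strand of GRCm38, were read from the RefSeq promoter table, and are written with the 9 CG pairs in capitals.
Hadha to Hadhb: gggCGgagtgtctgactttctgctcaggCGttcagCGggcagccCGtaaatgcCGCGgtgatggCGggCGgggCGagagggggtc
The difference between the log2 fold changes of Hadha and Hadhb was not tested.

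Auxiliary enzymes deal with the double bonds of unsaturated fatty acids. Ech1, a dienoyl-CoA isomerase, was at 1967, 1739.5, 1777 and 1594 CPM in tumor-bearing mice and 1381, 1320.0, 1252 and 1368 CPM in PBS-injected mice. The groups were well apart, with LLC1 1-2 the highest of all. Ech1 rose (1769 ± 153 CPM versus 1330.4 ± 58.5 CPM, log2 fold change 0.41 ± 0.074, FDR = 0.00785), and it was called with any mouse left out. Eci1, an enoyl-CoA isomerase of mitochondria, was at 304, 288, 276 and 278 CPM and 248, 232, 239 and 241 CPM. No tumor-bearing mouse reached down to the controls. Eci1 rose (287 ± 12.6 CPM versus 240.1 ± 6.43 CPM, log2 fold change 0.26 ± 0.058, FDR = 0.02), with the call kept in 4 of 8 fits with a mouse left out.

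Eci2, the isomerase shared with peroxisomes, read 208, 189, 197 and 173 CPM in tumor-bearing mice and 164, 169, 161 and 163 CPM in PBS-injected mice. The groups did not overlap, but the difference was not called (log2 fold change 0.22 ± 0.066, FDR = 0.0546). Decr1, the dienoyl-CoA reductase, was not called either (0.14, FDR = 0.261). The 4 auxiliary genes summed to 2499.9 to 3004 CPM in tumor-bearing mice and 2105 to 2259 CPM in PBS-injected mice.

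Electron transfer flavoprotein collects electrons from the dehydrogenases above. Etfb, its beta subunit, was at 788, 684, 720.1 and 641 CPM in tumor-bearing mice and 539, 564, 566 and 632 CPM in PBS-injected mice. LLC1 2-2 lay only just above PBS 2-5. Etfb rose (708 ± 62.1 CPM versus 575 ± 39.7 CPM, log2 fold change 0.30 ± 0.078, FDR = 0.0342), with the call kept in 3 of 8 fits with a mouse left out. A readthrough gene of the same strand, Gm45233, covers 53.0% of its exon bases. Etfa, the alpha subunit, was at 797, 754, 801 and 708 CPM and 753, 732, 721 and 635 CPM, with overlap between the groups (log2 fold change 0.11 ± 0.072, FDR = 0.376). Etfdh, which passes the electrons on to ubiquinone, was not called (0.094, FDR = 0.392).

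**Figure D4:**
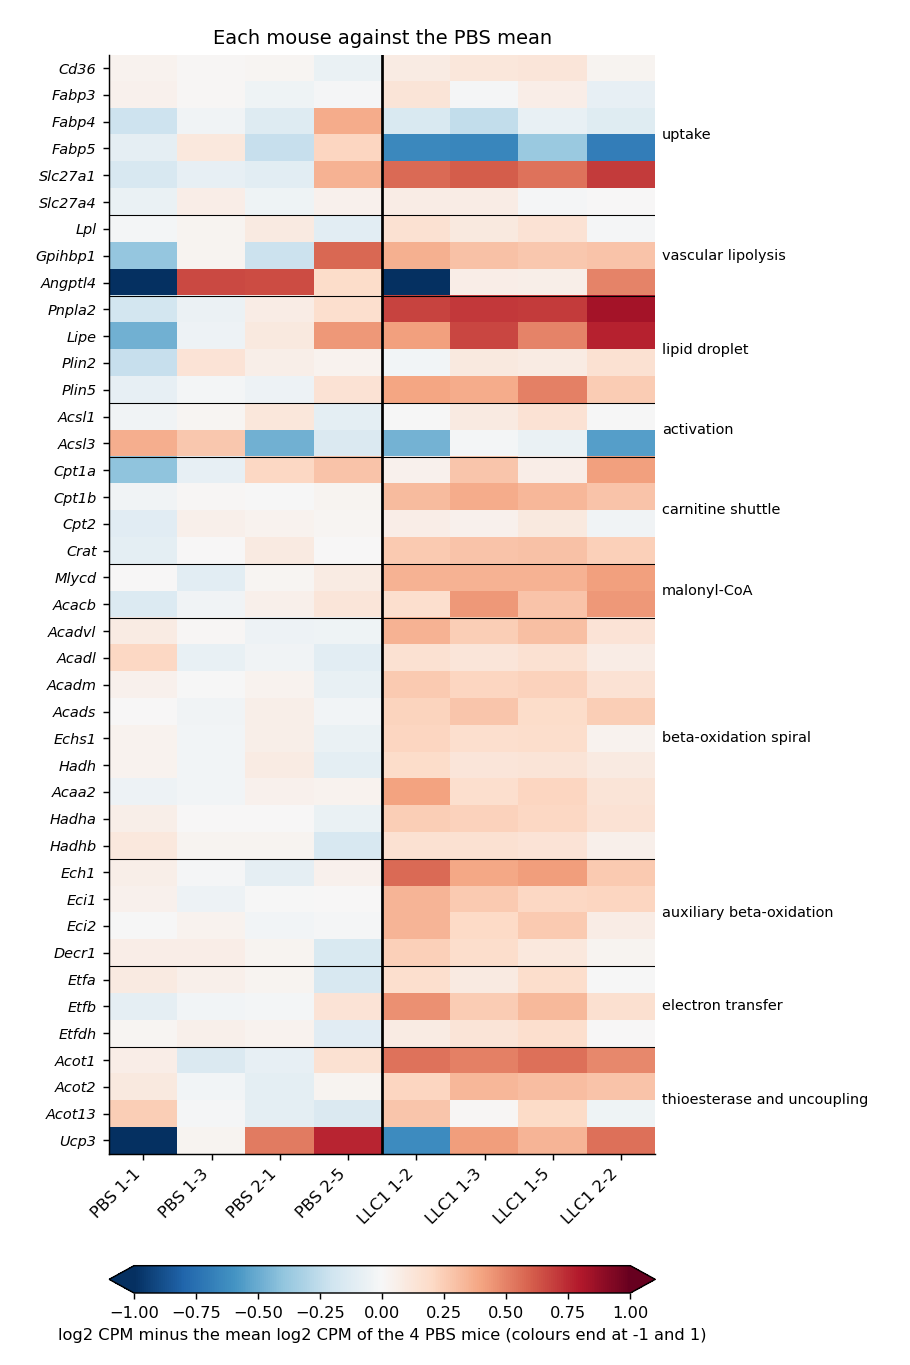
Log2 CPM of each of the 41 genes in each mouse minus the mean log2 CPM of the 4 PBS-injected mice, with red above and blue below that mean and colours ending at -1 and 1. Rows follow the steps, and columns are the 8 mice. The beta-oxidation rows are pale red in the 4 tumor-bearing mice, while Angptl4 and Ucp3 are blue in PBS 1-1 and LLC1 1-2.

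Acyl-CoA thioesterases release free fatty acid and coenzyme A from acyl-CoA. Acot1, the cytosolic form, was at 37.3, 36.5, 37.5 and 35.7 CPM in tumor-bearing mice and 26.9, 23.3, 24.2 and 28.6 CPM in PBS-injected mice. The tumor-bearing mice were nearly level and all above the controls. Acot1 rose (36.8 ± 0.826 CPM versus 25.8 ± 2.43 CPM, log2 fold change 0.51 ± 0.077, FDR = 0.00323) and was called in all planned fits. Acot2, the mitochondrial form, was at 94.9, 103, 101 and 99.6 CPM and 87.5, 80.1, 76.3 and 83.5 CPM, without overlap, and rose (99.6 ± 3.37 CPM versus 81.9 ± 4.77 CPM, log2 fold change 0.28 ± 0.062, FDR = 0.0177). The Acot2 call was kept in 4 of 8 fits with a mouse left out and lost with total-count scaling (FDR = 0.0538). The difference between the log2 fold changes of Acot1 and Acot2 was not tested. As a share of the summed CPM per kilobase of both, Acot1 made up 34.2% ± 1.04 in tumor-bearing mice and 30.7% ± 1.45 in PBS-injected mice (SD, n = 4).

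Acot1 and Acot2 are near-identical copies 21629 bases apart on chromosome 12, so their counts may not be fully separate, depending on counting settings that are not given in the sources used here. Of 1236 aligned coding bases in the GENCODE M21 transcripts, 1178 are identical (95.3%), the longest run without a difference is 273 bases, and 209 of 1087 stretches of 150 bases, the read length, hold no difference. The sequences below show the limits of this likeness, with letters that differ between the genes in capitals, on the plus strand of GRCm38. The stretch without a difference is at chr12:84016780-84016929 in Acot1 and chr12:83992502-83992651 in Acot2, and the most different stretch, with 14 differences, is at chr12:84009667-84009816 in Acot1 and chr12:83988182-83988331 in Acot2.
Acot1 and Acot2 alike: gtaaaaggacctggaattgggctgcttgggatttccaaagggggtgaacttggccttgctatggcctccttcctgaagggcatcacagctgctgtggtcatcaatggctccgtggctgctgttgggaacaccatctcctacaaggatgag
Acot1 most different: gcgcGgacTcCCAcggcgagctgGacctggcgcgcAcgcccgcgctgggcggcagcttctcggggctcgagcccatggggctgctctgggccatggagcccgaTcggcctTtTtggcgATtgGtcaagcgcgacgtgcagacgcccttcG
Acot2 most different: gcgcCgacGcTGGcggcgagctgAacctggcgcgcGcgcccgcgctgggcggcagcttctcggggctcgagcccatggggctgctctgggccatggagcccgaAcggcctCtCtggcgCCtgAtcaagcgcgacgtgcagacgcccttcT
A single read from the shared stretch fits both genes, and how such reads, or pairs with 1 such read, were counted was not tested.

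Acot13, a thioesterase linked to mitochondria, was at 229, 191, 216 and 184 CPM in tumor-bearing mice and 225, 188, 177 and 171 CPM in PBS-injected mice, with overlap (log2 fold change 0.11 ± 0.10, FDR = 0.532). Ucp3, the muscle uncoupling protein, a carrier of the inner mitochondrial membrane, was at 58.2, 121, 114 and 132 CPM and 36.4, 91.8, 129 and 153 CPM. The range was wide in both groups, with LLC1 1-2 and PBS 1-1 the lowest of their groups, as they were for Angptl4, Lipe, Cpt1a, Plin2, Acacb and Pnpla2. Ucp3 was not called (log2 fold change 0.047 ± 0.35, FDR = 0.952), its interval of -0.71 to 0.80 spans differences larger than most in these genes, and its sign turned in 6 of the alternative fits. Within groups, the pooled SD of log2 CPM was 0.91 for Angptl4 and 0.76 for Ucp3, and 0.34 or less for the others.

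**Figure D5:**
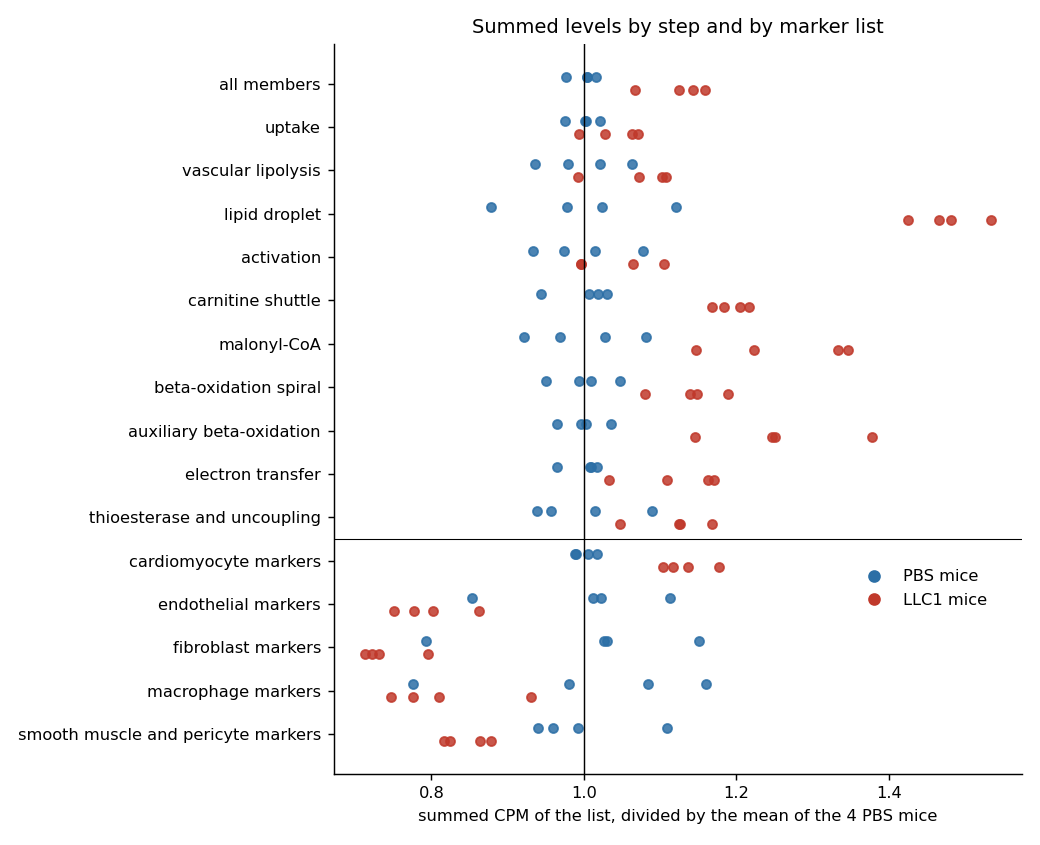
Summed CPM of all 41 genes, of the genes of each step and of 5 lists of cell type markers in each mouse, divided by the mean of the 4 PBS-injected mice (blue), with tumor-bearing (LLC1) mice in red. The groups separate upward for the sum of all 41 genes, in 6 of the 10 steps and in the cardiomyocyte markers. They separate downward in the smooth muscle and pericyte markers. They overlap in uptake, vascular lipolysis, activation, and thioesterase and uncoupling, and in the endothelial, fibroblast and macrophage markers.

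By step, the summed levels of the groups did not overlap for the lipid droplet, the carnitine shuttle, malonyl-CoA, the spiral, the auxiliary enzymes and electron transfer. They overlapped in the 4 other steps. Such sums are weighted by the most abundant genes. Pnpla2 held 596 of 981 CPM of the droplet sum in tumor-bearing mice and 361 of 664 CPM in PBS-injected mice. Acacb held 706 of 852 CPM and 561 of 675 CPM of the malonyl-CoA sum. Ech1 held 1769 of 2738 CPM and 1330.4 of 2181 CPM of the auxiliary sum. The log2 ratio of the summed levels was 0.56 for the droplet genes, 0.34 for malonyl-CoA, 0.33 for the auxiliary enzymes, 0.26 for the carnitine shuttle, 0.19 for the spiral and 0.16 for electron transfer, compared with 0.18 for the cardiomyocyte markers. Relative to the markers, the droplet genes amounted to 0.929% to 1.03% in tumor-bearing mice and 0.639% to 0.826% in PBS-injected mice, and the auxiliary genes to 2.53% to 2.95% and 2.38% to 2.48%, both without overlap. The other 4 steps that separated in CPM overlapped on that scale. The spiral was at 9.37% to 10.1% and 9.07% to 9.89%. The carnitine shuttle was at 1.99% to 2.11% and 1.80% to 2.02%, malonyl-CoA at 0.759% to 0.918% and 0.682% to 0.810%, and electron transfer at 2.06% to 2.27% and 2.11% to 2.27%. The uptake sum lay lower in tumor-bearing mice, at 5.16% to 5.40% and 5.64% to 5.82%. With marker scaling 5 of the 6 uptake genes had negative log2 fold changes. The most abundant, Fabp3 (-0.15, FDR = 0.0908) and Cd36 (-0.095, FDR = 0.257), were not called. Slc27a1 was then called higher, and Fabp4 and Fabp5 lower.

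Among the 118 other genes of fatty acid metabolism listed for comparison, 108 passed the filter, 9 were called higher and 3 lower, 8.33% and 2.78% of those tested. Their median log2 fold change was 0.079. Leaving out PBS 1-1 or PBS 1-3 changed the number called higher to 14 and 5. The number called lower was 0 without LLC1 1-3, LLC1 2-2 or PBS 1-3, 1 without LLC1 1-2 or LLC1 1-5, 5 without PBS 1-1 and 6 without PBS 2-5. Klf15, a transcription factor of cardiac lipid metabolism, had the largest change of those called. It was at 100.2, 109.6, 115 and 103 CPM in tumor-bearing mice and 56.5, 70.5, 53.7 and 73.6 CPM in PBS-injected mice, without overlap, and rose (log2 fold change 0.75 ± 0.10, FDR = 0.00167). The estrogen-related receptors Esrra (0.25, FDR = 0.0302) and Esrrb (0.33, FDR = 0.0352), regulators of mitochondrial genes, rose too.

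Among the enzymes called, Acss1, the mitochondrial enzyme that activates acetate (0.40, FDR = 0.00376), Hsd17b10, a mitochondrial dehydrogenase (0.37, FDR = 0.0154), and Acad10 (0.34, FDR = 0.0114) also rose. So did the droplet coat protein Plin3 (0.40, FDR = 0.00175) and the protease Furin (0.39, FDR = 0.012). Those that fell were Scd2, a desaturase (-0.49, FDR = 0.0254), Elovl5, an elongase (-0.32, FDR = 0.0424), and Cav1, the caveolin of endothelial caveolae (-0.37, FDR = 0.0198). The carnitine carrier Slc25a20, which connects Cpt1b and Cpt2, missed the threshold in edgeR (log2 fold change 0.22, FDR = 0.0501) with groups that did not overlap. Of the 11 other genes of activation and carnitine transport, which include it, edgeR called 1 and DESeq2 and limma-voom each called 2.

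The promoter table of RefSeq (GRCm38.p6) held 36 windows of 31 of the 41 genes, each from 250 bases before to 50 bases after a start site. Fabp4, Fabp5, Lpl, Gpihbp1, Angptl4, Cpt1b, Crat, Acaa2, Decr1 and Acot13 have no window there. The windows were searched on both strands for the motif AGGTCA repeated in the same direction with 1 base between, the form bound by PPAR and its partner RXR, with at most 2 mismatches in 12 letters. Such a repeat was present in 5 of 36 windows (13.9%) and in 3.86% of all 32851 windows. The matches are shown along the strand of the motif, with letters of the motif in capitals and each at 2 mismatches. Their middle bases lie 57 (Cd36), 219 (Plin2), 77 (Echs1), 71 (Etfa) and 45 (Ucp3) bases before the start site of the window. The Cd36 window, at chr5:17835847-17836146, is placed around a start site inside the gene, which spans chr5:17781690-17888959 in the count table.
Cd36, chr5:17835947-17835959: AaGTCAgAGGcCA
Plin2, chr4:86670272-86670284: AGGTCAggGGTCc
Echs1, chr7:140116492-140116504: AGGTCAcgGGTCc
Etfa, chr9:55512308-55512320: AGGgCAaAGGTaA
Ucp3, chr7:100472940-100472952: AGGTttcAGGTCA
The Echs1 match is on the minus strand and the others are on the plus strand. Of these 5 genes, edgeR, DESeq2 and limma-voom each called 0, and 1 (Echs1) had an unadjusted p-value under 0.05. Their log2 fold changes were 0.086, 0.069, 0.15, 0.11 and 0.047. The motif TCAAGGTCA, bound by estrogen-related receptors, was found in 0 of 36 member windows and in 0.423% of all windows, and the shorter AGGTCA, which both longer motifs contain, in 10 of 36 (27.8%) and 16.3%.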

How the data were processed

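Per the labels, total RNA was isolated with miRNeasy kits, libraries were made with the TruSeq RNA Library Prep Kit V2, which does not mark strand, and sequenced on an Illumina HiSeq instrument. The submitters' processing notes name CASAVA, STAR and featureCounts and the mm10 build (versions and counting settings are not given in the sources used here). The authors deposited whole-number counts per gene without normalization. The members and gene lists were chosen with earlier results of these data known.

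Counts were compared with edgeR 4.0.16 (R 4.3.3, limma 3.58.1, DESeq2 1.42.0): filterByExpr, TMM factors, glmQLFit and glmQLFTest with group as the only term, and Benjamini-Hochberg adjustment over 16111 genes. The common biological coefficient of variation was 0.11. CPM per kilobase used the gene length in the deposited table. No mouse was dropped or imputed. The steps were tested on simulated data.

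Every member was described, with values per mouse for those called, for the uncalled member of each step with the largest change, and for Cd36, Lpl, Cpt1b, Acadm and Ucp3. Of the 118 other genes, those called were named, except for a result that is not reported here. Slc25a20 was named after its value was seen. Alternatives were DESeq2, limma-voom, upper-quartile or total-count scaling, 2 count filters, the code's first number as a covariate, gene length offsets, each mouse left out, and, added later, scaling to 8 cardiomyocyte markers. Annotation overlaps came from GENCODE M21, and similar transcripts from BLAST 2.17.0 (at least 95% identity over 150 bases).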

Additional observations from a re-analysis of the deposited data

Results flagged for a closer look

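Among the 82 groups of 4 values of the 41 genes, 4 had a value whose gap to its nearest neighbour, divided by the group's range, was above Dixon's 95% critical value for 4 samples, and chance alone gives this in about 1 in 20 such groups. With 267 CPM, PBS 2-5 was far above the other PBS-injected mice for Slc27a1, which ran from 187 to 198 CPM. Fabp5 was highest among tumor-bearing mice in LLC1 1-5, at 31.4 CPM compared with 25.1 to 25.9 CPM. LLC1 2-2 stood above its group for Pnpla2, at 639 CPM compared with 575 to 586 CPM, and for Mlycd, at 151 CPM compared with 144.8 to 144.9 CPM. In each of the 4 genes the value lay on the same side of the other group as the rest of its own group, and each gene remained called without that mouse.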

How the results depend on the processing

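Over all alternatives, 587 log2 fold changes of the 41 genes kept their direction and their side of the threshold, 71 kept their direction but were no longer called, 12 became called and 27 changed sign. Scaling to cardiomyocyte markers, chosen after seeing the data, called 4 members higher and 2 lower, 4 other listed genes higher and 19 lower, and 4085 of all genes. With it the log2 fold changes turned negative for Cd36 (-0.095), Fabp3 (-0.15), Slc27a4 (-0.15), Lpl (-0.087), Plin2 (-0.11), Acsl1 (-0.12), Cpt2 (-0.14), Acadl (-0.060), Echs1 (-0.033), Hadh (-0.050), Hadhb (-0.059), Decr1 (-0.045), Etfa (-0.073), Etfdh (-0.088), Acot13 (-0.076) and Ucp3 (-0.13). Total-count scaling called 7 members higher and 5 other listed genes lower, and turned Fabp3 (-0.024), Slc27a4 (-0.021), Cpt2 (-0.018) and Ucp3 (-0.026) negative. Gene length offsets called 15 other listed genes higher, turned Fabp3 (-0.072) and Acot13 (-0.011) negative, and called 975 of all genes higher and 619 lower. With a mouse left out, 7 to 18 members and 5 to 14 other listed genes were called higher, 0 to 6 other listed genes lower, and 542 (without PBS 1-3) to 1949 of all genes, compared with 16, 9, 3 and 1406 with all mice. The log2 fold change ran from -0.0046 to 0.060 for Fabp3 and from -0.23 to 0.30 for Ucp3 over these fits. The cause was not tested. Hadha was called by DESeq2 (FDR = 0.0025), limma-voom, upper-quartile factors and gene length offsets, and without PBS 1-1 (FDR = 0.0242). Eci2 was called by DESeq2, gene length offsets and 1 of 8 fits with a mouse left out, and Acaa2 by DESeq2. No paired analysis was run, because the labels name no pairs and do not say what the replicate codes mean. The groups share only 1 such code (1-3).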

Other observations

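Genes of ketone body use were not part of the 41, and those named here were picked after their values were seen. Of the 4 tested, edgeR, DESeq2 and limma-voom each called 0, and 3 had an unadjusted p-value under 0.05. Of the same 4, 3 had positive log2 fold changes, up to 0.61, and Oxct1 was the 1 with a negative value. Oxct1, the enzyme that lets the heart use ketone bodies, averaged 1203 ± 85.3 CPM in tumor-bearing mice and 1369 ± 125 CPM in PBS-injected mice (SD, n = 4), with overlap and no call (log2 fold change -0.19, FDR = 0.172).

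Of the 16 regulators listed, 3 were called, all higher. Ppara, which encodes PPARα, averaged 48.0 ± 4.84 CPM in tumor-bearing mice and 42.1 ± 3.51 CPM in PBS-injected mice and was not called (log2 fold change 0.19, FDR = 0.201). Ppargc1a, a coactivator of mitochondrial genes, was not called either (0.29, FDR = 0.108), and its groups overlapped. Of the 10 fatty acid synthesis genes, 4 had positive and 6 negative log2 fold changes. edgeR called 2 of them, DESeq2 4 and limma-voom 2, with 6 at an unadjusted p-value under 0.05. Fasn, fatty acid synthase (0.33, FDR = 0.0641), and the desaturase Scd1 (-0.39, FDR = 0.0548) both missed the threshold in edgeR. They did so in opposite directions and with overlapping groups. Of the 8 other thioesterases tested, edgeR called 0, DESeq2 1 and limma-voom 0, with 2 at an unadjusted p-value under 0.05. Of these 8, 4 had positive and 4 negative log2 fold changes. Acot7, a cytosolic form, had groups that did not overlap (0.20, FDR = 0.0599).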
